A study of Mus musculus with 6 samples.

Results

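The genes described here are 9 kinases of the p38, ERK and JNK mitogen-activated protein kinase (MAPK) cascades, measured in the mouse microglial line BV2, which is immortalised. All 9 had a row among the 12327 genes of the deposited table and all 9 passed the filter on low values that left 12222 genes for testing. They were picked as kinases of microglial activation in pain, and Mapk14 was also selected on a measured value, its large spread between these 6 libraries. The levels of Mapk14 are therefore given as a description without a test. The other 8 kinases were tested in a limma fit over all 12222 genes.

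RNA was sequenced from 3 libraries labelled GCH1-KD and 3 labelled negative control. In the GCH1-KD group an adenovirus named Ad-shGCH1 was left on the cells for 48 hours to knock down GCH1, GTP cyclohydrolase I, which starts the synthesis of tetrahydrobiopterin. The negative control cells came from the same subline. The protocol names them Ad-NC, the series text names them wild type, and whether they were infected with a control virus is unclear from these texts. No other allele or agent is named for either group. The labels do not tell whether each library had its own culture. All p-values below therefore reflect library-to-library spread, part or all of which may be technical.

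MAPK pathways are relays of 3 kinase tiers. A MAP3 kinase phosphorylates a MAP2 kinase on serine and threonine, and the MAP2 kinase then phosphorylates the MAP kinase on a threonine and a tyrosine of its activation loop. Signalling through the relay runs by phosphorylation, which RNA levels do not measure. In microglia the p38 and JNK arms are best known for carrying signals from Toll-like, cytokine and purinergic receptors to inflammatory gene expression, and the ERK arm for growth factor and cytokine signals.

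The residue between the threonine and the tyrosine separates the arms, being glycine in p38, glutamate in ERK and proline in JNK. The coding bases around it are shown to make that difference between the 4 MAP kinases visible, with the codons of the threonine-X-tyrosine motif in capitals. They are 27 bases each, read from GENCODE M21 transcripts (assembly GRCm38), 5′ to 3′ on the coding strand, and each lies within 1 coding exon.

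Mapk14 (p38α): gatgagatgACAGGCTACgtggctacc
Mapk3 (ERK1): ggctttctgACGGAGTATgtggccaca
Mapk8 (JNK1): tttatgatgACGCCTTATgtggtgact
Mapk9 (JNK2): tttatgatgACTCCCTATgtggtaact

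The Mapk14 stretch lies at chr17:28728390-28728416 in exon 8 of 13, on the plus strand, and the Mapk3 stretch at chr7:126763449-126763475 in exon 4 of 9, also on the plus strand. The Mapk8 stretch lies at chr14:33392994-33393020 in exon 6 of 12, on the minus strand, and the Mapk9 stretch at chr11:49872821-49872847 in exon 6 of 12, on the plus strand. The JNK genes Mapk8 and Mapk9 differ from each other at 3 of the 27 bases, against 11 to 13 for every other pair. How reads that fit both genes were counted is not stated by the labels, and how many there were was not tested.

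The same was done for the MAP2 kinases, with the codons from the serine to the threonine that a MAP3 kinase phosphorylates in capitals.

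Map2k3 (MKK3): gtggacTCTGTGGCAAAGACAatggat
Map2k6 (MKK6): gtcgacTCTGTTGCTAAAACGatcgat
Map2k4 (MKK4): gtggacTCTATTGCCAAGACAagagat

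All 3 MAP2 kinase genes are on chromosome 11, the Map2k3 stretch at chr11:60946721-60946747 on the plus strand, the Map2k6 stretch at chr11:110496416-110496442 on the plus strand and the Map2k4 stretch at chr11:65707008-65707034 on the minus strand. Map2k3 and Map2k6, the p38 activators, differ at 6 of 27 bases. Map2k4, which activates JNK and also p38, differs from Map2k3 at 5 and from Map2k6 at 7.

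In these libraries the cascade genes fell into 2 kinds. Mapk14, its activator Map2k3 and the upstream kinase Map3k7 each jumped by more than 1.5-fold between libraries, and each jumped in different libraries. The jump of Map2k3 crossed the groups, that of Map3k7 was in 1 GCH1-KD library, and that of Mapk14 left negative control 1 and 2 above negative control 3 and all 3 GCH1-KD libraries. The other 6 kinases were much steadier, with a largest gap between neighbouring libraries of 1.19-fold or less. Of the 8 kinases tested, 0 passed a limma Benjamini-Hochberg (BH) adjusted p of 0.05, against 0.0818% of all genes tested (10 of 12222), and 1, the ERK gene Mapk3, had an unadjusted p under 0.05 with GCH1-KD lower, against 4.82% of all genes tested.

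The targeted gene followed the labels in every library. Gch1 was at 3.20, 2.93 and 3.43 FPKM in the GCH1-KD libraries, against 6.89, 7.22 and 7.23 FPKM in the negative controls (FPKM, fragments scaled to transcript length and to the mapped total of the library). Its log2 difference was -0.96 (SE 0.06, limma BH adjusted p = 0.00542). Of 12 microglial markers, 11 had a row (all but P2ry12), and their summed level was 992 to 1050 FPKM in GCH1-KD and 1040 to 1060 FPKM in negative control libraries. Of 6 neuronal markers 0 had a row, and of astrocyte, oligodendrocyte, endothelial, fibroblast and lymphocyte markers 1 or 2 each. The astrocyte marker Aldoc was at 24.7 to 26.3 FPKM in GCH1-KD and 24.8 to 28.6 FPKM in negative control libraries. In the same order, the endothelial markers Flt1 and Vwf summed to 26.2 to 28.8 and 26.4 to 27.4 FPKM. Cnp (oligodendrocyte) was at 5.1 to 5.8 and 4.89 to 5.52 FPKM, and Acta2 (fibroblast and mural) at 0.394 to 0.65 and 0.488 to 0.516 FPKM. The lymphocyte marker Lck was at 0.561 to 0.875 FPKM in GCH1-KD and 0.895 to 1.0 FPKM in negative control libraries. The part of these markers in any result was not tested. Depth, estimated from the step between low values, was 6.32 to 7.61 gigabases (Gb) of aligned sequence in GCH1-KD libraries and 5.25 to 5.58 Gb in negative controls, so that depth moved with the groups; its part in the differences below was not tested.

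**Figure D1:**
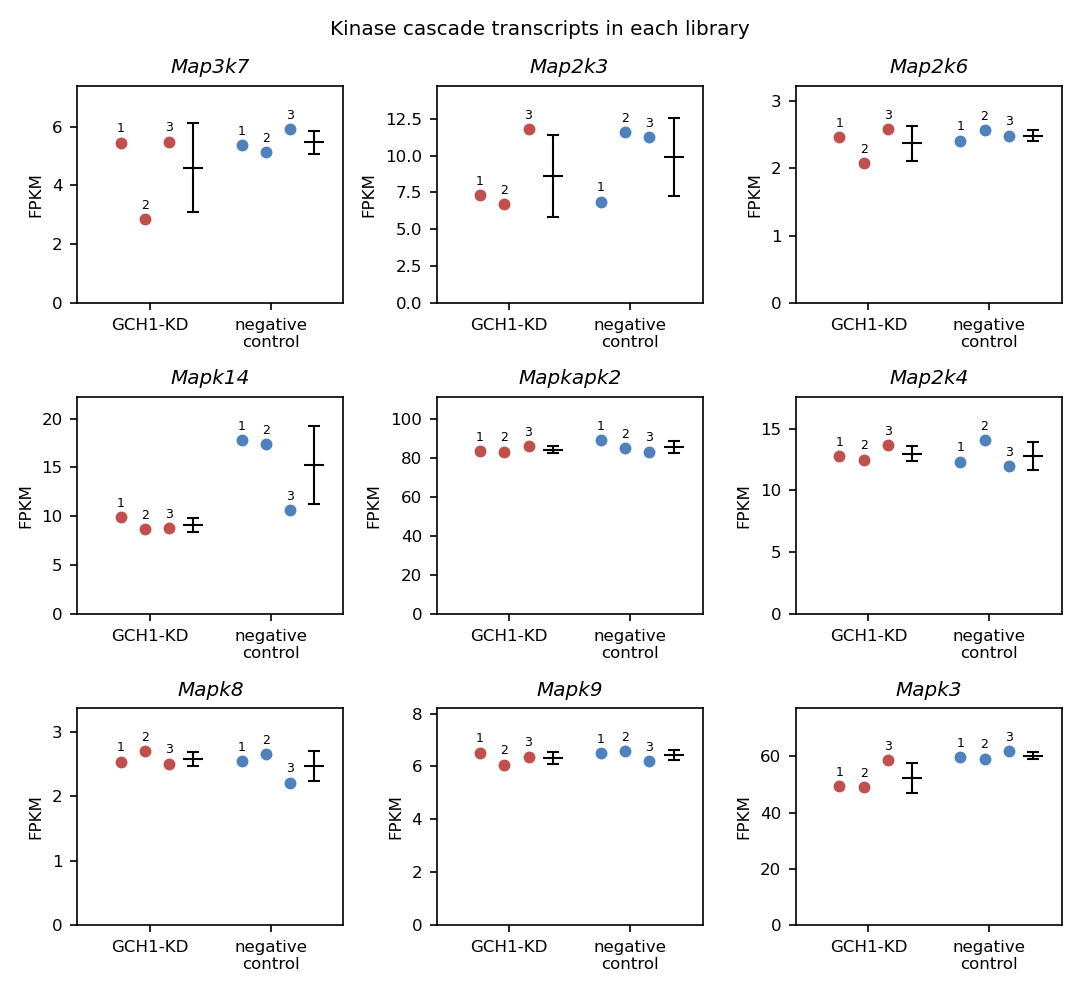
Level of each of the 9 kinases in FPKM (vertical axes from 0) in GCH1-KD (red) and negative control (blue) libraries, numbered by replicate, with mean and SD beside the points (n = 3 each). Mapk14 is high in negative control 1 and 2, Map2k3 is low in GCH1-KD 1 and 2 and negative control 1, and Map3k7 is low in GCH1-KD 2.

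At the head of the p38 and JNK arms, Map3k7 encodes TAK1, the MAP3 kinase that receptors of the Toll-like and interleukin-1 families use (GRCm38 chromosome 4, 31964097 to 32023467, plus strand). Map3k7 was at 5.46, 2.86 and 5.48 FPKM in GCH1-KD 1, 2 and 3, against 5.37, 5.12 and 5.91 FPKM in negative control 1, 2 and 3. GCH1-KD 2 was low and the other 5 libraries lay within 5.12 to 5.91 FPKM, so the groups overlap. The means were 4.60 ± 1.51 and 5.47 ± 0.40 FPKM (SD, n = 3 each), and the log2 difference of -0.25 (SE 0.20, unadjusted 95% interval -0.71 to 0.22, limma BH adjusted p = 0.652) rested on that library. Without GCH1-KD 2 it was 0.003. In these cultures a lower level can be fewer cells with the transcript or less of it per cell, which bulk RNA cannot tell apart.

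TAK1 works in a complex with the adaptors TAB1, TAB2 and TAB3 and is activated through TRAF6, IRAK1, IRAK4 and MyD88. Of these partners and related adaptors, 10 of 10 listed genes were measured, 7 above and 3 below the negative control, and 0 passed the test. Irak4, the first kinase of the receptor complex, had the smallest p. It was at 4.46, 4.0 and 3.75 FPKM in GCH1-KD libraries, against 3.53, 3.70 and 3.23 FPKM in negative controls, groups that do not overlap (log2 difference 0.18, SE 0.07, limma BH adjusted p = 0.435). The adaptors Traf3 (log2 difference -0.07) and Myd88 (0.12) came next, at limma BH adjusted p of 0.61 and 0.616.

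The p38 activators were unlike each other. Map2k3 (chromosome 11, 60932033 to 60952811, plus strand) was at 7.33, 6.70 and 11.8 FPKM in GCH1-KD 1, 2 and 3, against 6.87, 11.6 and 11.3 FPKM in negative control 1, 2 and 3. Its values formed a low set of GCH1-KD 1 and 2 with negative control 1 and a high set of GCH1-KD 3 with negative control 2 and 3, with nothing between 7.33 and 11.3 FPKM. Each group thus held both levels, and the log2 difference of -0.19 had an SE of 0.24 (unadjusted 95% interval -0.76 to 0.38, limma BH adjusted p = 0.789). Leaving out 1 library moved this difference between -0.41, without GCH1-KD 3 or without negative control 1, and -0.05, without GCH1-KD 2.

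Map2k6 (chromosome 11, 110399122 to 110525522, plus strand) showed no such step. It was at 2.47, 2.08 and 2.58 FPKM in GCH1-KD libraries, against 2.41, 2.57 and 2.49 FPKM in negative controls. GCH1-KD 2 was the lowest of the 6 and the groups overlap (log2 difference -0.05, SE 0.07, limma BH adjusted p = 0.814). Between the p38 activators, Map2k3 was the more abundant per length in every library. The ratio of Map2k3 to Map2k6 was 2.97, 3.22 and 4.56 in GCH1-KD libraries and 2.85, 4.51 and 4.53 in negative controls.

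Mapk14 encodes p38α, the main p38 kinase of myeloid cells (chromosome 17, 28691329 to 28748406, plus strand). Mapk14 was at 9.90, 8.69 and 8.75 FPKM in GCH1-KD 1, 2 and 3, against 17.8, 17.4 and 10.6 FPKM in negative control 1, 2 and 3. Every GCH1-KD library lay below every negative control, by a small margin for negative control 3, which was nearer to the GCH1-KD libraries than to the other negative controls. The mean was 9.12 ± 0.68 FPKM in GCH1-KD, 59.8% of the 15.3 ± 4.01 FPKM in negative control (SD, n = 3 each), a log2 difference of -0.65. Over the fits that leave out 1 library this difference ranged from -0.53, without negative control 1, to -0.88, without negative control 3. The highest of the 3 negative controls was 1.67 times the lowest, and the corresponding ratio in GCH1-KD was 1.14. The other p38 genes, Mapk11, Mapk12 and Mapk13, were not analysed here.

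The gene Mapkapk2 encodes MK2, the kinase that p38α activates and that stabilises inflammatory mRNAs through the RNA-binding protein tristetraprolin and lies on chromosome 1 from 131053700 to 131097826 on the minus strand. It was the most abundant member at 83.1, 83.1 and 85.9 FPKM in GCH1-KD libraries, against 88.8, 84.8 and 83.0 FPKM in negative controls. The groups overlap and the spread was among the smallest of the 9 (log2 difference -0.02, SE 0.04, unadjusted 95% interval -0.12 to 0.07, limma BH adjusted p = 0.828). The ratio of Mapkapk2 to Mapk14 was 8.39, 9.56 and 9.82 in GCH1-KD libraries and 5.0, 4.88 and 7.81 in negative controls. With Mapkapk2 nearly level, this ratio restates the values that Mapk14 was selected on and is no separate result.

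In the JNK arm nothing stood apart from the spread between libraries. Map2k4, on the minus strand of chromosome 11 from 65688243 to 65788297, was at 12.8, 12.5 and 13.7 FPKM in GCH1-KD libraries, against 12.3, 14.1 and 11.97 FPKM in negative controls (log2 difference 0.02, SE 0.07, limma BH adjusted p = 0.922). Mapk8, which encodes JNK1 and lies on the minus strand of chromosome 14 from 33377898 to 33447158, was at 2.54, 2.70 and 2.50 FPKM in GCH1-KD libraries, against 2.54, 2.66 and 2.21 FPKM in negative controls. Its log2 difference was 0.05 (SE 0.07, limma BH adjusted p = 0.818).

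Mapk9, which encodes JNK2 (chromosome 11, 49846751 to 49886421, plus strand), was at 6.51, 6.07 and 6.37 FPKM in GCH1-KD libraries, against 6.51, 6.57 and 6.21 FPKM in negative controls (log2 difference -0.02, SE 0.05, limma BH adjusted p = 0.887). Both JNK genes overlapped between the groups. In the deposited values, where the counting of reads that fit both genes is not stated, Mapk9 was per length the higher of the pair in every library, at 2.25 to 2.57 times Mapk8 in GCH1-KD and 2.47 to 2.81 times in negative control. The unadjusted 95% intervals of the log2 difference were -0.14 to 0.18 for Map2k4, -0.11 to 0.21 for Mapk8 and -0.14 to 0.10 for Mapk9.

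Mapk3 encodes ERK1 (chromosome 7, 126759601 to 126765819, plus strand) and was the member apart from Mapk14 whose groups did not overlap. It was at 49.3, 49.0 and 58.5 FPKM in GCH1-KD 1, 2 and 3, against 59.8, 59.2 and 61.8 FPKM in negative control 1, 2 and 3. GCH1-KD 1 and 2 were clearly below the negative controls, and GCH1-KD 3 was just under the lowest of them. The mean was 52.3 ± 5.41 FPKM in GCH1-KD, 86.8% of the 60.2 ± 1.35 FPKM in negative control (SD, n = 3 each). The log2 difference was -0.21 (SE 0.07, unadjusted 95% interval -0.37 to -0.04) with a limma BH adjusted p of 0.375, so Mapk3 did not pass over all genes. Its range over the fits leaving out 1 library was -0.29 to -0.16.

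Among the 8 tested kinases, 1 had groups that did not overlap with GCH1-KD lower and 0 with GCH1-KD higher, against 8.36% and 9.99% of all genes tested. At an unadjusted limma p under 0.05 the count was 1 lower and 0 higher, against 4.82% and 6.47%. Of the 8, 6 lay below and 2 above 0, with a median log2 difference of -0.04, and over all genes tested the median was 0.01 with 47.0% below 0.

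**Figure D2:**
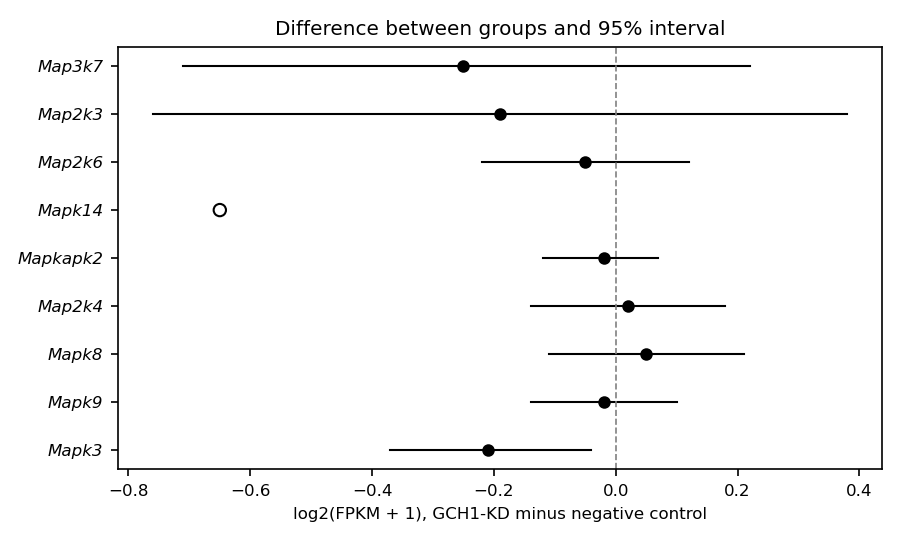
Difference of log2(FPKM + 1), GCH1-KD minus negative control, for each kinase (points), with the unadjusted 95% interval of the limma fit (lines, n = 3 each). Mapk14 is drawn open at -0.65 and without an interval because it was selected on its spread. The intervals of Map2k3 and Map3k7 are the widest and that of Mapk3, -0.37 to -0.04, lies below 0.

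Ordered by their mean over the 6 libraries, the members ran from Mapkapk2 (84.8 FPKM) and Mapk3 (56.3 FPKM) through Map2k4 (12.9), Mapk14 (12.2), Map2k3 (9.26), Mapk9 (6.37), Map3k7 (5.03) and Mapk8 (2.52) to Map2k6 (2.43 FPKM). Neighbours whose ranges over the libraries overlapped were Map2k4 with Mapk14, Mapk14 with Map2k3, and Mapk8 with Map2k6, and in each of these pairs the order held in 4 of 6 libraries. All the remaining neighbours did not overlap. With the estimated depth, mean coverage of the transcript ranged from 12.2-fold to 19.3-fold for Mapk8, the lowest such minimum, and from 445-fold to 633-fold for Mapkapk2. It ranged from 55.3-fold to 99.0-fold for Mapk14, from 38.3-fold to 74.5-fold for Map2k3 and from 19.6-fold to 41.5-fold for Map3k7, and the part of coverage in their steps was not tested. This scale takes each gene value as 1 mean coverage and covers no error of transcript assignment.

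The spread between libraries of the same group is computed from the same 6 values as the jumps and is given as a description of their size. The within-group SD of log2(FPKM + 1) was 0.39 for Map2k3, 0.31 for Map3k7 and 0.28 for Mapk14, larger than in 98.1%, 97.0% and 96.3% of genes tested. It was 0.10 for Mapk3, 0.09 for Map2k4, 0.08 for Map2k6 and Mapk8 and 0.04 for Mapk9 and Mapkapk2, against a median of 0.08 over all genes. For Mapk14 this spread is what it was selected on, and for Map2k3 and Map3k7 it was looked at after the values were seen.

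**Figure D3:**
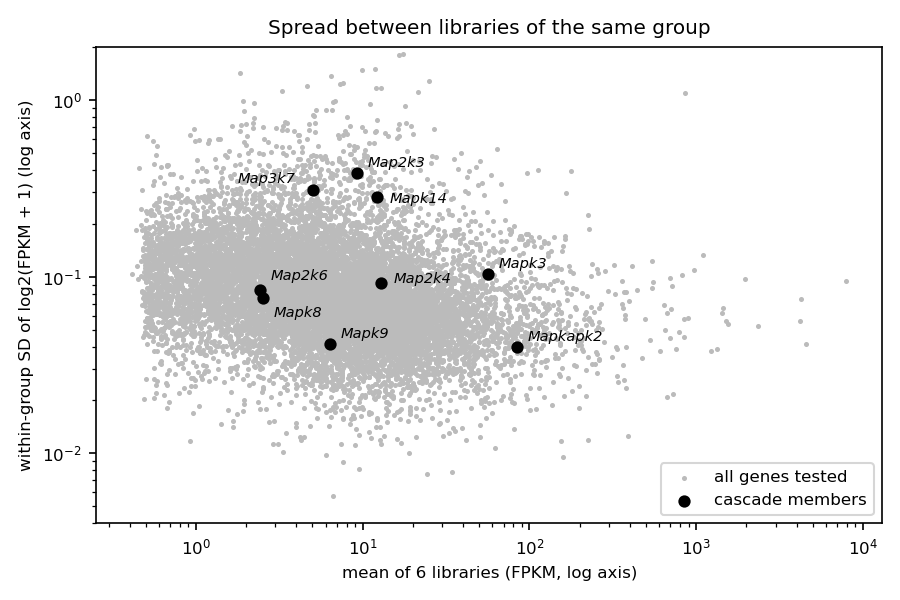
Within-group SD of log2(FPKM + 1) against the mean of the 6 libraries in FPKM (both axes log) for the 12222 genes tested (grey) and the 9 kinases (black). Map2k3, Map3k7 and Mapk14 stand at 0.39, 0.31 and 0.28, high for their level, and the other 6 kinases at 0.10 or less.

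The steps were measured as the largest fold between neighbouring libraries when the 6 values are sorted, a measure and a 1.5-fold limit that were set after the values were seen. It was 1.79-fold for Map3k7, 1.63-fold for Mapk14 and 1.54-fold for Map2k3. Among the 11224 genes tested with a mean of at least 1 FPKM, 397 (3.54%) had a gap of at least 1.5-fold. Of the 131 other MAPK pathway genes measured, counted without that limit on the mean, 4 had such a gap. Whether their share differs from that of all genes was not tested. Among the 4 were the adaptor gene Grb2, the arrestin gene Arrb1 and the phosphatase gene Dusp14. Grb2, which links receptors to RAS, was at 49.9, 24.3 and 47.4 FPKM in GCH1-KD libraries, against 46.5, 46.7 and 47.4 FPKM in negative controls, low in GCH1-KD 2 as Map3k7 was. Arrb1, a β-arrestin that also scaffolds MAP kinases, was at 4.92, 11.4 and 11.8 FPKM in GCH1-KD libraries, against 11.3, 4.64 and 4.54 FPKM in negative controls, with both levels in each group.

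Several annotated transcripts exist for each stepped kinase. GENCODE M21 lists 10 for Mapk14 (223 to 3592 bases), 6 for Map2k3 (455 to 2198 bases) and 9 for Map3k7 (538 to 5773 bases). The steadier members have 2 (Mapkapk2) to 11 (Mapk8), and the part of transcript number in the steps was not tested. Among genes with a mean of at least 1 FPKM, 17.6% of those with a gap of 1.5-fold had a single annotated transcript, against 15.2% of all, and with a mean of at least 5 FPKM the shares were 5.78% and 9.08%. Short annotated genes also lie within some of the loci: a protein-coding gene on the same strand within Mapk14 (28726083 to 28726700), a pseudogene and a small nuclear RNA on the opposite strand within Map3k7, and none within Map2k3. The steadier members have them too, with pseudogenes on either strand within Mapk8, a miRNA on the same strand within Map2k4, and a small nuclear RNA and an unclassified transcript on the same strand within Mapkapk2. How reads were divided there is uncertain, and the part of overlapping genes in the steps was not tested. The table gives 1 value per gene, and the part that assignment of reads to transcripts played in the steps was not tested.

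Genes whose pattern over the 6 libraries was closest to that of Mapk14 were ranked by the root-mean-square (RMS) difference of centred log2(FPKM + 1) among 11223 genes. The nearest were the deubiquitinase gene Usp45 (RMS difference 0.10), the RAS and RAB interactor Rin3 (0.14), Atraid (0.17), the glycolytic regulator Pfkfb3 (0.19) and Cutc (0.20). These genes were picked for being close to the same values that Mapk14 was selected on. Their small differences follow from that choice, and whether they vary together with Mapk14 was not tested. Usp45 was at 3.44, 3.67 and 3.34 FPKM in GCH1-KD libraries, against 6.59, 6.98 and 3.64 FPKM in negative controls. Rin3 was at 8.08, 8.09 and 8.14 FPKM in GCH1-KD libraries, against 13.6, 12.1 and 8.14 FPKM in negative controls. In both, as in Mapk14, negative control 3 was near the GCH1-KD libraries, but in Usp45 and Rin3 it overlapped them.

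The same ranking was made for the other stepped kinases after their values were seen. Closest to Map2k3 were the transcriptional repressor gene Spen (RMS difference 0.07), Zbtb2 (0.09) and the lectin gene Clec10a (0.12). Spen was at 8.32, 8.27 and 14.0 FPKM in GCH1-KD libraries, and in negative controls it was low at 8.73 FPKM in library 1 and high in libraries 2 and 3, the same high and low libraries as Map2k3. Closest to Map3k7 were Hsd3b7 (0.05), the G protein subunit gene Gng7 (0.06) and Fopnl (0.07). Fopnl was at 13.3, 6.88 and 13.7 FPKM in GCH1-KD libraries, against 13.7, 13.9 and 14.4 FPKM in negative controls, so it too was low in GCH1-KD 2.

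**Figure D4:**
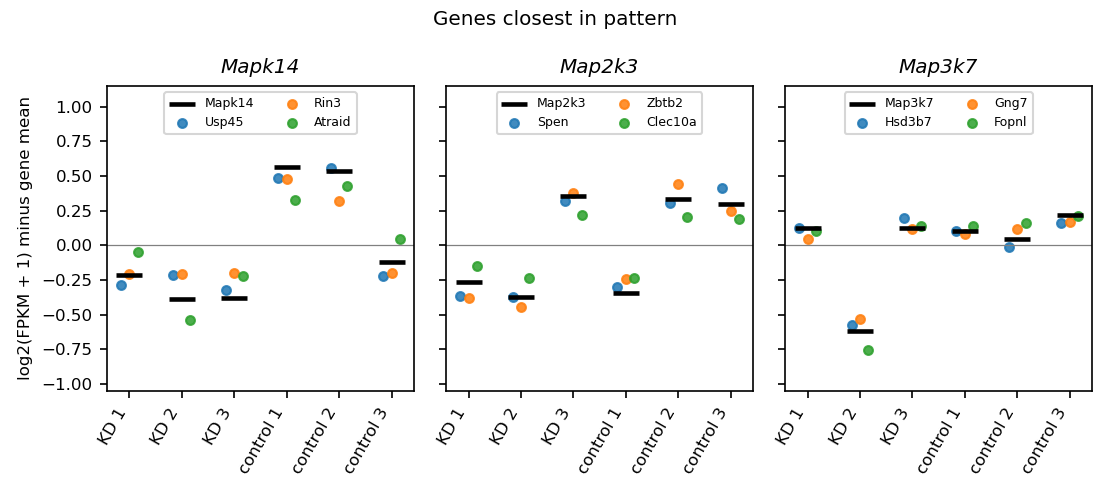
Level of Mapk14, Map2k3 and Map3k7 (black bars) and of the 3 genes closest to each (dots) as log2(FPKM + 1) minus the gene's mean, by library. The 3 kinases step in different libraries. Usp45, Spen and Hsd3b7 (RMS differences of 0.10, 0.07 and 0.05) are near them because they were picked as the closest in these same values.

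Beyond the 9 kinases, 149 other genes of the MAPK pathway were listed in 10 groups by role, and 131 were measured and tested. Of these, 0 passed a limma BH adjusted p of 0.05 (lowest 0.261). At an unadjusted p under 0.05, 7 (5.34%) were higher and 11 (8.40%) lower in GCH1-KD, against 6.47% and 4.82% of all genes tested. Groups did not overlap for 9 (6.87%) higher and 18 (13.7%) lower, against 9.99% and 8.36%. Below 0 lay 61.8%, against 47.0% of all genes tested. The median log2 difference was -0.03, against 0.01 over all genes tested. By role, groups did not overlap with GCH1-KD higher for 3 of 13 inputs (23.1%), 2 of 10 TAK1 partners and adaptors and 1 each among the MAP3 and MAP4 kinases, scaffolds, transcription factors and MK2-related genes. With GCH1-KD lower they did not overlap for 5 of 17 phosphatases (29.4%), 4 of 23 transcription factors (17.4%), 2 of 26 MAP3 and MAP4 kinases, 2 of 11 MK2-related genes, and 1 or 0 in each of the other groups.

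In the kinase tiers around the members 0 genes passed the test. Among the other MAP kinases, Mapk7, which encodes ERK5, was at 6.06, 5.95 and 5.66 FPKM in GCH1-KD libraries, against 6.80, 6.55 and 6.55 FPKM in negative controls, without overlap (log2 difference -0.15, SE 0.05, limma BH adjusted p = 0.359). Mapk6 (log2 difference -0.02) and Nlk (-0.05) had limma BH adjusted p of 0.887 and 0.788.

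The other MAP2 kinases were the ERK activators Map2k1 (log2 difference -0.01) and Map2k2 (-0.04), the ERK5 activator Map2k5 (0.01) and the JNK activator Map2k7 (-0.16), with limma BH adjusted p of 0.48 to 0.955. Of 26 other MAP3 and MAP4 kinases measured, 9 lay above and 17 below 0. Map3k8, which encodes TPL2, the MAP3 kinase that leads to ERK downstream of Toll-like receptors in macrophages, was at 3.94, 3.95 and 4.37 FPKM in GCH1-KD libraries, against 3.31, 3.40 and 3.04 FPKM in negative controls. The groups do not overlap, and it did not pass over all genes (log2 difference 0.26, SE 0.06, limma BH adjusted p = 0.287). Map4k4 (-0.07) and Map4k5 (-0.12) followed it by p.

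Among inputs to the relay, 13 of 13 listed were measured, 7 above and 6 below 0. Gadd45g, whose product binds the MAP3 kinase MAP3K4 and activates p38 and JNK, had the smallest p of the 131 genes. It was at 8.64, 8.10 and 8.55 FPKM in GCH1-KD libraries, against 7.29, 6.66 and 6.91 FPKM in negative controls, without overlap (log2 difference 0.25, SE 0.05, limma BH adjusted p = 0.261). The GTPase genes Rac2 and Rac1 lay on opposite sides of 0, at log2 differences of -0.11 and 0.10 (limma BH adjusted p = 0.373 and 0.439).

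Among kinases that MAP kinases activate, 9 were measured, 3 above and 6 below 0. Rps6ka2, which encodes an RSK kinase downstream of ERK, was at a log2 difference of -0.16, Mapkapk3, the closest relative of Mapkapk2, at 0.13 and Mknk2, which phosphorylates the cap-binding protein eIF4E, at -0.07 (limma BH adjusted p = 0.433, 0.479 and 0.482). The ratio of Mapkapk2 to Mapkapk3 was 9.84, 10.7 and 9.94 in GCH1-KD libraries and 12.4, 11.7 and 10.3 in negative controls. Of 14 scaffold and docking genes measured, 6 lay above and 8 below 0, with the smallest p for Ksr2 (log2 difference 0.13), Lamtor1 (-0.09) and Pea15a (-0.11).

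MAPK phosphatases, which switch the kinases off and are often induced by them, were measured for 17 of 19 genes, 5 above and 12 below 0, with 0 past the test. Dusp7, an ERK phosphatase, was at 63.0, 63.9 and 63.9 FPKM in GCH1-KD libraries, against 72.1, 71.5 and 68.2 FPKM in negative controls (log2 difference -0.15, SE 0.04, limma BH adjusted p = 0.287). Dusp1, which dephosphorylates p38 and JNK, was at 13.9, 16.1 and 16.6 FPKM in GCH1-KD libraries, against 19.9, 20.1 and 16.8 FPKM in negative controls, where negative control 3 was again the closest to the GCH1-KD libraries (log2 difference -0.27, SE 0.09, limma BH adjusted p = 0.361). Ppm1b was at a log2 difference of -0.11.

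Of 23 transcription factor genes whose products MAP kinases phosphorylate or induce, 7 lay above and 16 below 0 (median log2 difference -0.05), with 0 past the test. The AP-1 gene Fosl1 was at 6.82, 6.73 and 6.92 FPKM in GCH1-KD libraries, against 7.81, 8.15 and 7.86 FPKM in negative controls (log2 difference -0.19, SE 0.04, limma BH adjusted p = 0.268). Jund was at a log2 difference of -0.16. Atf1, which encodes a CREB relative, was at 0.31 and its groups did not overlap, with 23.9, 24.3 and 24.2 FPKM in GCH1-KD libraries, against 16.2, 21.6 and 20.7 FPKM in negative controls (limma BH adjusted p = 0.356).

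Substrates of MK2 and messages with the AU-rich elements it acts through were measured for 11 of 15 genes, 4 above and 7 below 0 (median log2 difference -0.06), with 0 past the test. Zfp36, which encodes tristetraprolin, was at 10.7, 10.6 and 11.7 FPKM in GCH1-KD libraries, against 13.1, 11.9 and 13.0 FPKM in negative controls (log2 difference -0.18, SE 0.06, limma BH adjusted p = 0.353). Tnf, a message that tristetraprolin destabilises, was at 47.0, 50.6 and 58.8 FPKM in GCH1-KD libraries, against 62.6, 62.7 and 58.8 FPKM in negative controls, where GCH1-KD 3 and negative control 3 were alike at this precision (log2 difference -0.24, SE 0.08, limma BH adjusted p = 0.366). GCH1-KD 3 was the library nearest to the negative controls for Tnf, as it was for Mapk3. Hnrnpa0, an RNA-binding substrate of MK2, was at a log2 difference of 0.12.

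**Figure D5:**
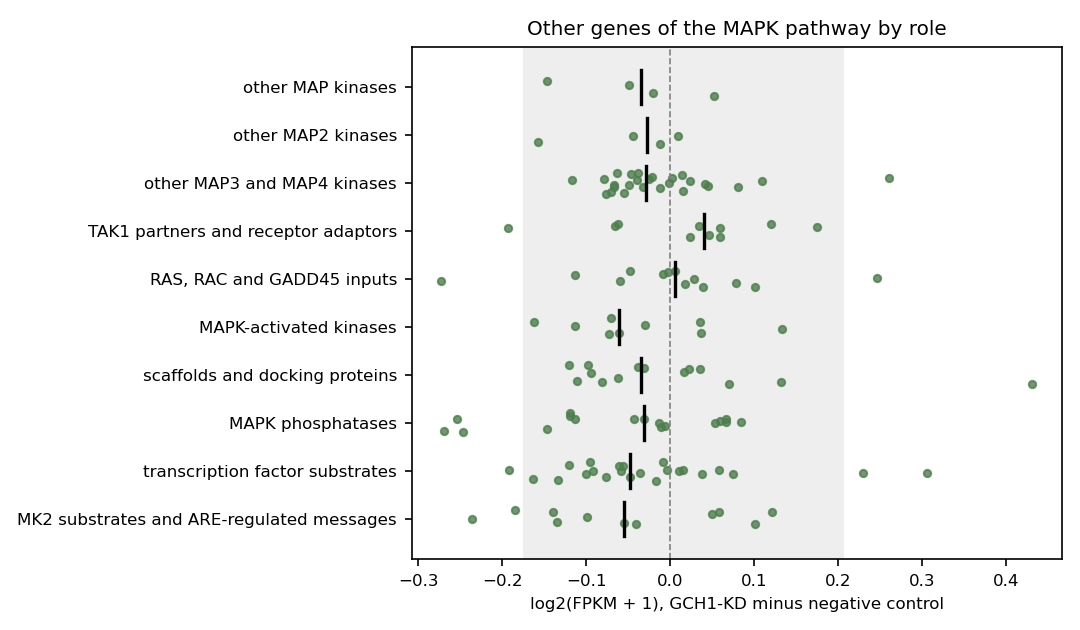
Difference of log2(FPKM + 1), GCH1-KD minus negative control, for the 131 other MAPK pathway genes in 10 groups by role (dots), with each group's median (black line) and the range from the 5th to the 95th percentile of all genes tested (grey, -0.174 to 0.205). Group medians lie between -0.06 and 0.04, and the dot farthest right is Arrb1, whose 2 levels occur in each group.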

How the data were processed

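Per the labels' protocols, TRIzol RNA went through Ribo-Zero depletion and a KAPA stranded kit. The authors deposited 1 value per gene and library without naming its unit, and the values behave as FPKM: in 400 low single-transcript genes per library, the product of value, transcript length and estimated depth was a whole number of bases to within 0.1 for 66.0% to 68.3% of values, where chance at a fixed depth gives 20.0%. The depth was the one that gave the largest such share. Tools named in the submitters' processing notes are StringTie, HISAT2 and edgeR, with no version or role, and the build named is the human hg38, although the identifiers are mouse. Annotation release and strandedness of the quantification: not given in the sources used here. In every gene of the table at least 1 group had a mean of 0.501 FPKM or more. Columns of no sample of this series numbered 0.

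Symbols came from GENCODE M21 by identifier without version (12300 of 12327 matched, 10904 with version, 8 of the 9 members with version). Genes that reached 0.5 FPKM in 3 or more of the 6 libraries entered a limma fit (version 3.58.1, R 4.3.3; trended empirical Bayes, no covariate) on log2(FPKM + 1), BH adjusted over all of them, threshold 0.05. Fold changes on this scale understate those of low genes. The same fit was also run on simulated data with the means and spread of these libraries, and its recovery is not given here. Descriptions were computed in Python 3.11.15 (pandas 2.3.3, numpy 2.4.6) and drawn with matplotlib 3.10.9. Genes named are all members, Gch1, up to 3 genes with the smallest p per pathway list, every measured MAP kinase and MAP2 kinase, Zfp36 and Hspb1 where measured, and the 5 genes closest to Mapk14. A gene that this rule names is not reported here. The members and lists were chosen with earlier results of these data known. Alternatives were a replicate block, each library left out, 2 other filters, 2 other pseudocounts, 2 other scalings, robust or untrended moderation, and a loess correction (span 0.3) for GC content and length of the longest transcript.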

Additional observations from a re-analysis of the deposited data

How the results depend on the processing

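Over 16 alternatives, 0 of the 8 tested kinases and 0 of the 131 other pathway genes, or those the filter kept, passed in any (lowest limma BH adjusted p 0.22 and 0.235), and Mapk14 stayed between -0.88 and -0.53 on the log2 scale. The count of all genes called was 10. It was 6 to 18 with each library left out (6 without GCH1-KD 2 or 3, 18 without negative control 2) and 0 with the replicate number of the titles as a block, where 1330 genes had an unadjusted limma p under 0.05. Whether same-numbered libraries belong together is not stated by the labels. Their deviations correlated weakly across genes, at 0.095, 0.059 and 0.094. Among the libraries of the other group, every library correlated best with its own number, so the data hint at a pairing. Under the block Gch1 had a limma BH adjusted p of 0.0604. Uncalled log2 differences, small except for the -0.25 of Map3k7, crossed 0 in 14 of 728 values of named genes. With each library left out, these ranged from -0.009 to 0.085 for Mapk8, -0.044 to 0.003 for Mapk9, -0.020 to 0.087 for Map2k4, -0.095 to 0.014 for Map2k6, -0.37 to 0.003 for Map3k7, -0.046 to 0.002 for Mapkapk2, -0.062 to 0.004 for Mapk6, -0.053 to 0.019 for Map2k1 and -0.026 to 0.032 for Map2k5. With the GC and length trend removed Mapk8 was at -0.006 and Mapkapk2 at 0.008. With 3 libraries a group, the intervals given are the limit on what could be seen.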
